A study of Mus musculus with 18 samples.

Results

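The nuclear-encoded genes of oxidative phosphorylation were taken as every symbol that starts with Nduf, Sdh, Uqcr, Atp5, Cox4, Cox5, Cox6, Cox7 or Cox8 in both deposited tables, which gave 96 of 24391 genes. Of these, 83 encode subunits or tissue homologs of subunits: 36 of complex I, 4 of complex II, 8 of complex III, 20 of complex IV and 15 of complex V. Ndufa4, named as a complex I gene, was placed with complex IV, where its protein is now assigned. The rule also took 11 assembly factors, Ndufaf1 to Ndufaf7 and Sdhaf1 to Sdhaf4, and 2 genes named after ATP synthase, Atp5s and Atp5sl, that were kept apart because they are not subunits. In these cells 90 of the 96 genes were expressed highly enough to test, with a normalised value of at least 10 in 3 libraries of the knockdown and in 4 of the rescue.

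Complexes I to IV of the inner mitochondrial membrane pass electrons from NADH and succinate to oxygen and, except for complex II, pump protons; complex V, the ATP synthase, lets the protons flow back and makes ATP. Complexes I, III, IV and V each combine proteins encoded in the nucleus with a few encoded in mitochondrial DNA, so their genes are read from separate genomes and the products are joined with the help of assembly factors, which are not part of the finished enzyme. Complex II is encoded in the nucleus alone and is also an enzyme of the citric acid cycle. Several subunits exist as paralogs that are used in different tissues, such as the heart and muscle forms of cytochrome c oxidase, and proliferating T cells use respiration together with glycolysis. RBPJ is the DNA-binding factor of the Notch pathway, which represses its targets with co-repressors when Notch is inactive, and L3MBTL3 is a chromatin protein with MBT domains that binds RBPJ.

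All 18 libraries came from the T cell hybridoma line E2-10HA, of mouse origin and grown in IMDM with 2% FCS, and held ribosome-depleted total RNA sequenced with a stranded kit. In the knockdown, 3 libraries carried a scramble hairpin and 3 a single hairpin against L3MBTL3, both in pLKO.1 under puromycin. In the rescue, all 12 libraries were from RBPJ-depleted cells selected with blasticidin, and that table holds no group without depletion. Rbpj itself read 255 to 317 with the empty vector, 627 to 818 with RBPJ WT and 685 to 922 with the mutant, so transcripts remained in the depleted cells. They received an empty vector (pMY-Bio IRES Blasticidin), Flag-tagged mouse RBPJ wild type (WT), or its F261A/A284V form, in 4 libraries each. The labels do not say that replicates were separate cultures, and every p-value here measures no more than the spread among these libraries, which may be technical. Values are the authors' normalised read counts, and the tables were normalised separately.

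Sequencing depth, as reads recovered from the values, was 4882485 to 6129134 in the knockdown libraries and 3553505 to 7921533 in the rescue libraries, where replicates 3 and 4 of every group were shallower (at most 4239479) than replicates 1 and 2 (at least 5923799). The label T cell held: 11 of 12 T cell markers passed the filter, with summed values of 4543 to 6269, while 0 of 6 B cell and 0 of 5 stromal markers did. Of 6 NK and innate lymphoid markers, 2 passed in both experiments, Gata3 at 654 to 997 and Tbx21 at 40 to 124. Of 3 erythroid markers, 1 passed in the knockdown and 0 in the rescue, with summed values of 0 to 29.4 over all libraries. Of 7 myeloid markers, 2 passed in the knockdown and 4 in the rescue. Their summed level was 378 to 408 in the scramble and 252 to 322 in the shRNA libraries, most of it Cd68. In the rescue libraries it was 236 to 313. The part of these markers in the results was not tested. L3mbtl3 itself read 467, 447 and 352 in the scramble libraries and 394, 371 and 370 in those labelled L3MBTL3 shRNA, so scramble replicate 3 lay below all 3 of them and directions below are those of the labels. In 3 rescue pairs the reads differed by less than their sampling noise. These were replicates 1 and 2 of the empty vector, the same of RBPJ WT and replicates 3 and 4 of the mutant. A chi-square divided by its degrees of freedom was 0.859, 0.721 and 0.823 there, and at least 1.06 for the other pairs of a group. Each such pair may be 1 sample, so rescue values are given per library. The tests of the rescue nevertheless used all 12 libraries. So did the mean shares and the differences between replicates 1 and 2 and replicates 3 and 4. A fit that merges the near-identical pairs is given as an alternative.

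Promoters are described first, without a test. RefSeq sequences (GRCm38.p6, 250 bases before to 50 after a start) matched 80 of the 96 members. The NRF1 motif, GCGCA followed by any base and GCGC, was searched on both strands like the other motifs, and stood in 21 of the 80 genes (26.2%), against 5.19% of all 27025 genes with a window. The ETS motif bound by GABPA, CCGGAAG, stood in 20 (25%, against 9.93% of all genes), and the YY1 motif, AAGATGGC, in 11 (13.8%, against 3.19%). The RBPJ motif, GTGGGAA, stood in 5 (6.25%, against 7.25%), and shares the letters GGAA with the ETS motif. Split by role, the NRF1 motif stood in 17 of 68 subunit genes (25%) and in 4 of 10 assembly factor genes (40%). The GABPA motif stood in 16 (23.5%) and 4 (40%), and the YY1 motif in 10 (14.7%) and 0. The RBPJ motif stood in 4 (5.88%) and 1 (10%). NRF1, GABPA and YY1 are known activators of respiratory genes. These counts are matches of letters only, and their part in the levels below was not tested. Of the genes below, Ndufa5 is the member called in the knockdown, Cox6a1 is the widespread paralog of Cox6a2, and Sdha is a catalytic subunit with 3 matches. Each line gives the 250 bases before the start on the minus strand, with motif matches in capitals.
Ndufa5 (chr6:24527691-24527940, minus strand, GRCm38.p6): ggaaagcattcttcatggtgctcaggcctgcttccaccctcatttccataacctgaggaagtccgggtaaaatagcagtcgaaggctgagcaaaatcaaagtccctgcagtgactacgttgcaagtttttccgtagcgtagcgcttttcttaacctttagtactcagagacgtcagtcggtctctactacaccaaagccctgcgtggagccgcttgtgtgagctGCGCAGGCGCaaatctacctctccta
Cox6a1 (chr5:115348959-115349208, minus strand, GRCm38.p6): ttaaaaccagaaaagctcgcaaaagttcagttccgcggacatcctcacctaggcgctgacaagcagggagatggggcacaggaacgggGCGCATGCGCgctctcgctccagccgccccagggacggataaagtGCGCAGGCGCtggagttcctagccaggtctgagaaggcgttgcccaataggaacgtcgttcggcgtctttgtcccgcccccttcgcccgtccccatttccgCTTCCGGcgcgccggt
Sdha (chr13:74350241-74350490, minus strand, GRCm38.p6): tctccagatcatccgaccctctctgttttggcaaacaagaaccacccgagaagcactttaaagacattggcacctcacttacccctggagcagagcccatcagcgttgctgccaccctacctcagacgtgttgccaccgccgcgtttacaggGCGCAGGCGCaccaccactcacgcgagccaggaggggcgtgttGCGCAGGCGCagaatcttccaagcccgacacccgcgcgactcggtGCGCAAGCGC
The first base of each match was counted back from the start, with -1 the base just before it. In Ndufa5 the NRF1 match begins at -26. In Cox6a1, NRF1 matches begin at -162, on both strands, and at -117, and a GABPA match on the opposite strand begins at -16. In Sdha, NRF1 matches begin at -98, -55 and -10.

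Per kilobase of transcript, subunit genes were read at a median of 353 normalised reads in the scramble libraries, against 131 for the 11488 tested genes with a length. The medians were 326 for complex I, 421 for complex II, 436 for complex III, 367 for complex IV and 358 for complex V, each between the 86.3 and 94.1 percentile of tested genes. Assembly factors stood lower, at a median of 145 for those of complex I and 108 for those of complex II, and Atp5s and Atp5sl had a median of 103. The subunit transcripts were also short, with a median of 875 nt against 2973 nt for all tested genes, and per-kilobase levels depend on the transcript chosen: the longest annotated one was used, and with the median transcript length complex V stood at 447.

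Within complexes the range was wide. By the longest transcript, the highest per-kilobase level was that of Atp5b, the catalytic beta subunit of ATP synthase, at 745 ± 87.3 (SD, n = 3), and the next of complex V was the alpha subunit Atp5a1 at 614; these neighbours differ by less than the sum of their SDs. The highest of complex III was Uqcr10 at 625 ± 57.3, of complex IV Cox4i1 at 601 ± 60.2 with Cox6a1 next at 577, of complex I Ndufb9 at 584 ± 67.4 with Ndufa7 next at 538, and of complex II the membrane anchor Sdhd at 494 ± 60.9. In complexes I, II and IV the leading neighbours likewise differed by less than the sum of their SDs, while Uqcr10 and the next gene of complex III, Uqcrh at 498 ± 67.2, differed by slightly more. The lowest were Ndufab1, the mitochondrial acyl carrier protein of complex I, at 27.2 ± 5.29, Atp5g1 of complex V at 41.3 ± 1.57, Sdhc of complex II at 133 ± 1.43, Uqcrq of complex III at 164 ± 14.3 and Cox7c of complex IV at 216 ± 15.5. By the median transcript length, Ndufv3 at 889 and Ndufa6 at 805 were above Atp5b and led complex I, Uqcrb at 325 was the lowest of complex III, with Uqcrq at 494, and Cox7a1 at 272 the lowest of complex IV. The leading genes of complexes II to V and the lowest of complexes I, II and V were the same by both lengths. Among assembly factors, Ndufaf1 led at 186 ± 11.5, and Sdhaf3 was lowest at 16.7 ± 1.42.

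**Figure D1:**
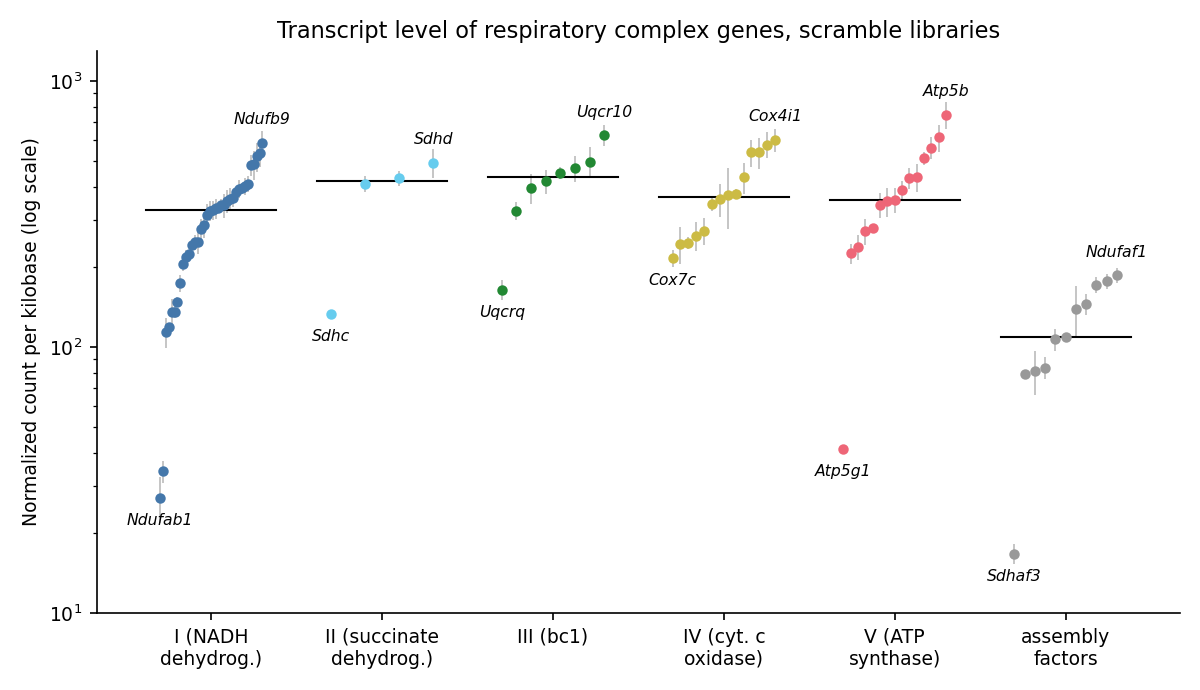
Normalised reads per kilobase of transcript in the scramble libraries (log axis) for the tested members, grouped by respiratory complex and by assembly factors. Subunit genes of the 5 complexes centre between 326 and 436, above the assembly factors of complexes I and II, which together centre at 109.

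The isoform pattern was that of a non-muscle cell with some exceptions. Of the 6 members that were not tested, Cox7b2 and Cox8c, known from testis, had no reads in any library, which allows up to 3 reads in each. Cox4i2, the form used in lung and low oxygen, had 1 read in 1 library, Cox8b, a muscle form, 20 reads over 18 libraries, Cox6b2, a testis form, 37, and Ndufa4l2, induced by low oxygen, 136. The widespread forms therefore carried nearly all the per-kilobase signal of their families: Cox4i1 99.8 to 100%, Cox8a 98.4 to 100%, Cox6b1 97.4 to 100% and Ndufa4 96.4 to 99.3% over the 18 libraries.

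The heart and muscle forms Cox6a2 and Cox7a1 were the exceptions. Cox6a2 held 35.2 to 42.6% of the Cox6a signal in the scramble libraries and 25.2 to 34% in the shRNA libraries, and 32.1 to 39% in the 12 rescue libraries. Cox7a1 held 18.8 to 21.2% of the Cox7a family in the scramble and 17.5 to 18.9% in the shRNA libraries. In the rescue its share was 17.2 to 21.8% in replicates 1 and 2 and 13.2 to 15.3% in replicates 3 and 4. Beside it, Cox7a2 stood at 35.2 to 39.7% and the supercomplex factor Cox7a2l at 42.1 to 48.5%. Of the 3 genes that encode the same mature c-ring subunit of ATP synthase, Atp5g3 held 54.6 to 63.5%, Atp5g2 32.3 to 41.1% and Atp5g1 3.95 to 4.76%. The small share of Atp5g1 leans on its longest transcript of 4715 nt, against 731 nt for Atp5g2 and 723 nt for Atp5g3. Before division by length, Atp5g1 read 140 to 226, Atp5g2 171 to 294 and Atp5g3 291 to 494 over all libraries. By the median transcript length, their scramble means per kilobase were 72.8, 447 and 515. Such near-identical copies and their pseudogenes may share reads.

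The libraries labelled L3MBTL3 shRNA were compared with the scramble libraries, to ask which genes differ with a hairpin against this RBPJ partner. L3mbtl3 itself overlapped between these groups, as given above. Of the 90 tested members, 1 fell and 0 rose, beside 1.11% of all 11586 tested genes that fell and 2.21% that rose (limma, adjusted p under 0.05). At an unadjusted p under 0.05 there were 4 members, beside 25.5% of all genes, and edgeR and DESeq2 also called 0 higher, and 1 and 2 lower. The gene that fell was Ndufa5, an accessory subunit of the arm of complex I that extends into the matrix. It read 111, 111 and 134 in the scramble libraries and 69.2, 69.7 and 74.9 in those labelled shRNA, means of 119 ± 13.1 and 71.2 ± 3.15 (SD, n = 3 each). All 3 shRNA libraries lay below all 3 scramble libraries. The log2 fold change was -0.73 (SE 0.135, adjusted p = 0.0392), and no annotated exon of another gene overlaps Ndufa5. Its call was lost when any 1 library but scramble replicate 3 was left out: adjusted p was then 0.0529 and 0.082 without scramble replicates 1 and 2, and 0.209, 0.18 and 0.105 without shRNA replicates 1, 2 and 3, with the log2 fold change between -0.77 and -0.64. Calls over all genes fell away in most of these fits too, to 0 without scramble replicate 2, shRNA replicate 1 or shRNA replicate 2, to 2 higher and 3 lower without shRNA replicate 3, and to 241 and 97 without scramble replicate 1.

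Cox6a2, the heart and muscle form of a regulatory subunit of cytochrome c oxidase, had the largest difference of the members. It read 231, 203 and 328 in the scramble and 136, 122 and 183 in the shRNA libraries. Here replicate 3 was the highest of both groups, and the groups did not overlap. The log2 fold change was -0.78 (SE 0.205), with an adjusted p of 0.0713 in limma, so that it missed the threshold. Blocking on the replicate number gave an adjusted p of 0.000395, where 8.71% of all genes fell, and DESeq2 gave 0.00967; over all alternatives it ran from 0.000395 to 0.269. Cox6a2 overlaps Itgad on the other strand, and Itgad read only 8.64 to 28.3 in these 6 libraries.

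Ndufs8, a core subunit that carries iron-sulfur clusters of complex I, had the next lowest p among the lower members. It read 326, 334 and 348 against 293, 292 and 294 (log2 fold change -0.20, adjusted p = 0.118), without overlap. On the higher side stood 3 assembly factors, none past the threshold. Ndufaf7, a methyltransferase needed for complex I assembly, read 239, 248 and 172 in the scramble and 293, 274 and 266 in the shRNA libraries (log2 fold change 0.35, adjusted p = 0.162, and 0.0279 with the replicate block; 0.0279 to 0.431 over the alternatives). Scramble replicate 3 was the lowest of the 6, and without it the log2 fold change was 0.19. Sdhaf4, which helps flavinated Sdha to join complex II, read 106, 108 and 71.3 against 119, 120 and 114 (log2 fold change 0.33, adjusted p = 0.272), and without scramble replicate 3 its log2 fold change was 0.14. Ndufaf2, which binds a late complex I intermediate, read 53.3, 55.6 and 51.6 against 63.4, 59.9 and 64.3 (log2 fold change 0.22, adjusted p = 0.361). The plot of single members by library shows these differences beside catalytic subunits.

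**Figure D2:**
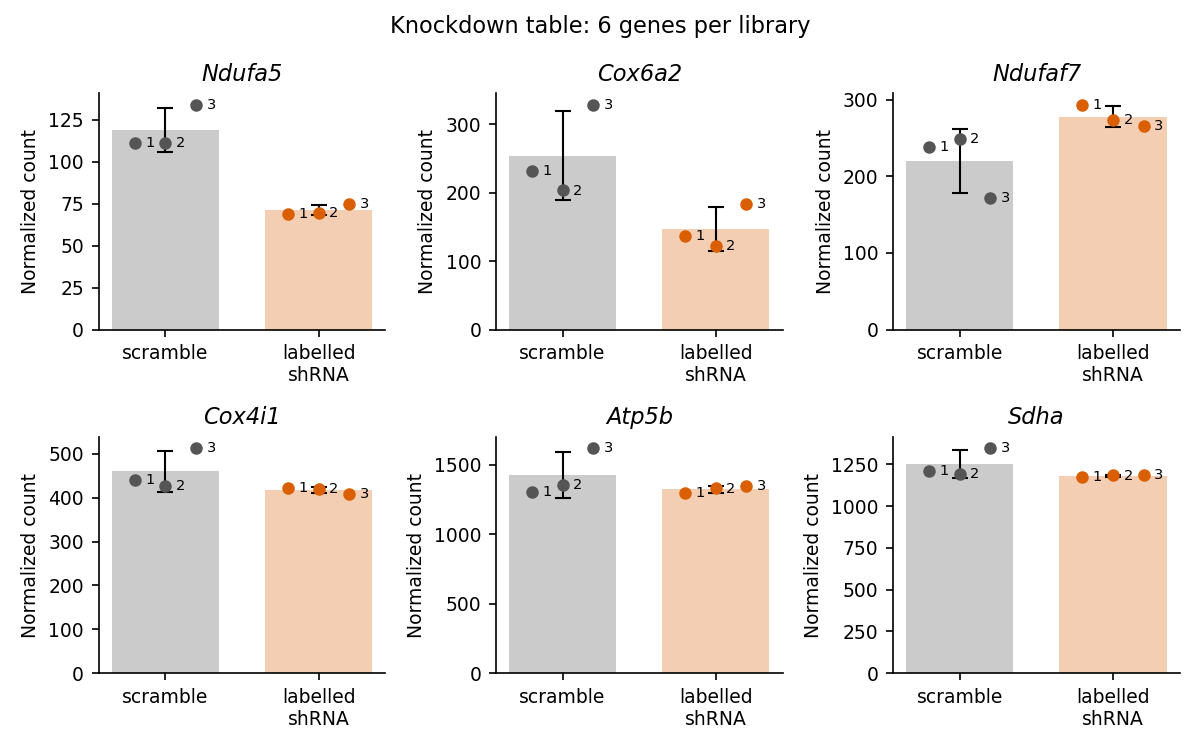
Normalised read count of Ndufa5, Cox6a2, Ndufaf7, Cox4i1, Atp5b and Sdha in the scramble and L3MBTL3 shRNA libraries; bars are means, error bars SD (n = 3) and points single libraries numbered by replicate. The shRNA libraries of Ndufa5 (69.2 to 74.9) lie below all scramble libraries (111 to 134), while scramble replicate 3 is the highest library for Cox4i1, Atp5b and Sdha.

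A list of 20 catalytic or structural subunits chosen by name, the 7 core subunits of complex I, all 4 of complex II, 3 of complex III, Cox4i1, Cox5a and Cox5b of complex IV and Atp5a1, Atp5b and Atp5c1 of complex V, held no called gene. Their log2 fold changes lay between -0.20 (Ndufs8) and 0.009 (Ndufs1, a subunit of the electron input module), and 19 were below 0. Sdha, the flavin-bearing subunit of succinate dehydrogenase, read 1210, 1195 and 1347 against 1174, 1184 and 1187 (log2 fold change -0.08, adjusted p = 0.416). Atp5b read 1306, 1356 and 1618 against 1294, 1329 and 1346 (log2 fold change -0.10, adjusted p = 0.44). Cox4i1, the regulatory subunit IV of cytochrome c oxidase, read 440, 427 and 513 against 422, 420 and 409 (log2 fold change -0.14, adjusted p = 0.305). In each of these 3 genes scramble replicate 3 was the highest library.

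By complex, the median log2 fold changes were -0.068 for I, -0.092 for II, -0.1 for III, -0.113 for IV and -0.074 for V, and -0.017 for the 11 assembly factors. Over all 90 members the median was -0.075, against -0.007 for all tested genes, and 80 were below 0, as were 51.3% of all genes. The groups did not overlap in 17 members that were lower, beside 17.1% of all tested genes, and in 3 that were higher, beside 18.1%. This small common difference leaned on 1 library. Scramble replicate 3, the shallowest of the knockdown, lay above the other 5 libraries in 69 of the 90 members, beside 35.8% of all genes, and these were 67 of the 77 tested subunits and 1 of the 11 assembly factors. It exceeded scramble replicates 1 and 2 by a median of 0.216 (log2) in subunits, while assembly factors stood at -0.086 and all genes at 0.001. Its Rn45s share of reads was also the highest of the knockdown, 0.111% against 0.0884 to 0.0963% in the other 5 libraries, and the part of this in the result was not tested. Without it, 55 of 90 members were below 0, beside 49.4% of genes, and the median was -0.015 against 0.002 for all genes.

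**Figure D3:**
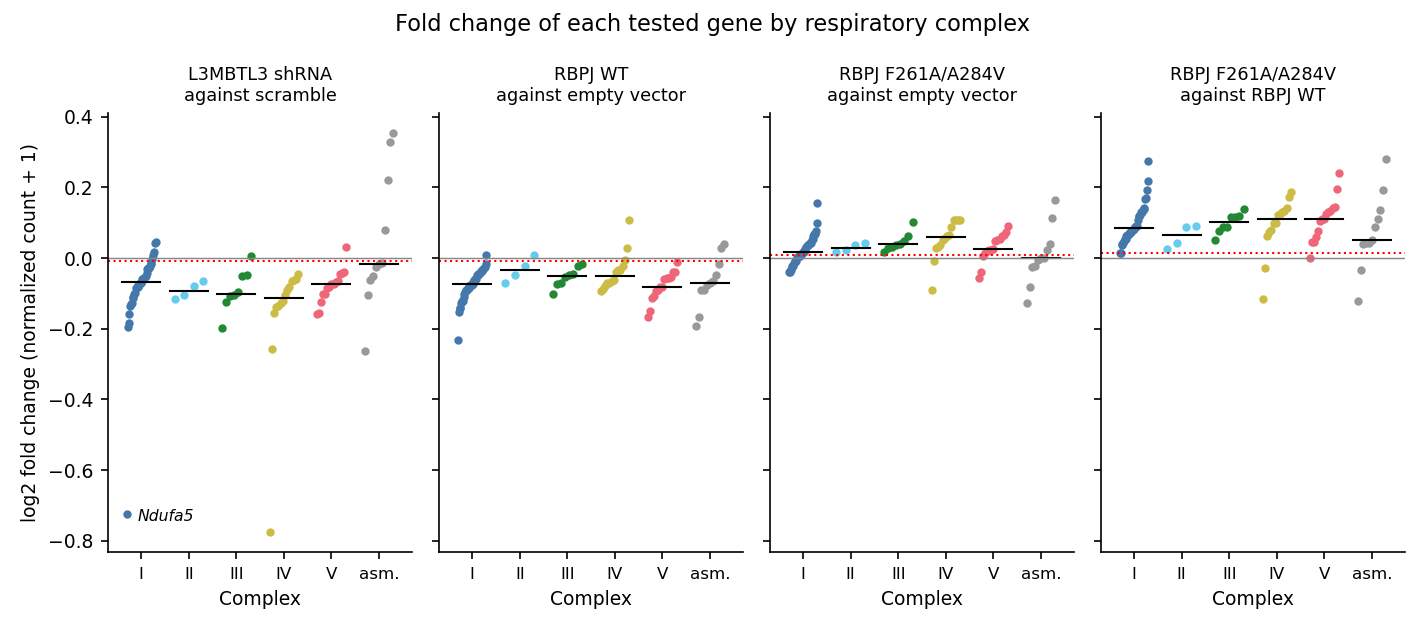
Log2 fold change of each tested member, by respiratory complex and assembly factors, in the knockdown and in the 3 rescue comparisons; black bars are medians and the red dotted line is the median of all tested genes. In the knockdown, Cox6a2 (-0.78) and Ndufa5 (-0.73) stand below the other members, whose complex medians lie between -0.113 and -0.068.

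In the rescue the question was what RBPJ, or its F261A/A284V form, changes in RBPJ-depleted cells. No member was called in any of the 3 comparisons, which share libraries with each other. For RBPJ WT against the empty vector, 0 of 90 members were called beside 0.0342% of all 11691 tested genes that rose and 0.214% that fell; 1 member had an unadjusted p under 0.05 (3.4% of genes), and edgeR and DESeq2 called 0. For RBPJ F261A/A284V against the empty vector, 0 were called beside 0.0171% that rose and 0% that fell, with 0 members at an unadjusted p under 0.05 (2.05% of genes) and 0 by edgeR and DESeq2. For RBPJ F261A/A284V against RBPJ WT, 0 were called beside 0.231% that rose and 0.0855% that fell, with 1 member at an unadjusted p under 0.05 (4.62% of genes) and 0 by edgeR and DESeq2.

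The 2 members at an unadjusted p under 0.05 were Atp5sl and Ndufab1. Atp5sl, which despite its name is a protein linked to complex I assembly, read 235, 240, 246 and 225 in the empty vector and 252, 260, 283 and 292 in the RBPJ WT libraries (log2 fold change 0.20, adjusted p = 1). The groups did not overlap, as in 1.46% of all genes on the higher side. Ndufab1 read 88.7, 81.7, 73.9 and 85.7 with RBPJ WT, 97.9, 91.3, 98.5 and 113 with RBPJ F261A/A284V (log2 fold change 0.28, adjusted p = 0.794), and 89.8, 89.4, 89 and 90.2 with the empty vector. The mutant libraries lay above all others, as 1.94% of genes did against RBPJ WT and 0.881% against the empty vector, and Ndufab1 overlaps Gm44986 on the other strand.

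Sdhaf1, an iron-sulfur assembly factor of complex II, read 226, 224, 301 and 306 with the empty vector, 213, 221 and 238 with RBPJ WT replicates 1 to 3, where replicate 4 was the highest of the group, and 251, 228, 326 and 342 with RBPJ F261A/A284V. In all 3 groups replicates 3 and 4 were above replicates 1 and 2, and those of RBPJ WT lay below those of the other groups. Against RBPJ WT, the mutant's log2 fold change was 0.28 with an adjusted p of 1, and of 0.0174 with the replicate block, where 2.51% of all genes rose; a term for the pair of replicates in place of the block also called it, where 2.61% rose. Within replicates 3 and 4 it was 0.42 with an adjusted p of 0.00671, where 3.64% of all genes rose, but the mutant libraries of that fit are the near-identical pair, so that its mutant arm may be 1 sample. With the near-identical libraries counted once and a term for the pair of replicates, the adjusted p was 0.0892, so the call is lost there; over all alternatives it ran from 0.00671 to 1. Sdhaf1 overlaps E130208F15Rik on the other strand. Within replicates 3 and 4 alone, Atp5j, coupling factor 6 of the ATP synthase stalk, was also called against RBPJ WT (325 and 285 against 229 and 223, log2 fold change 0.43, adjusted p = 0.0109), from the same near-identical pair of mutant libraries, and Atp5j overlaps Gabpa on the other strand.

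By complex, the medians of RBPJ WT against the empty vector lay between -0.082 (complex V) and -0.035 (complex II), those of RBPJ F261A/A284V against the empty vector between 0.016 (complex I) and 0.06 (complex IV), and those of the mutant against RBPJ WT between 0.067 (complex II) and 0.112 (complex V). Over all 90 members the 3 medians were -0.064, 0.029 and 0.089, beside -0.008, 0.008 and 0.014 for all tested genes. Of the members, 82 were below 0 in the first (53.5% of genes), 70 above 0 in the second (53.8%) and 83 above 0 in the last (55.0%). Within replicates 1 and 2 alone the medians were -0.054, 0.015 and 0.08. Within replicates 3 and 4 alone they were -0.067, 0.041 and 0.106, the same directions. In replicates 1 and 2, however, the mutant libraries went apart. Mutant replicate 1 lay above the other 5 libraries there in 73 of 90 members, beside 35.7% of all genes. In mutant replicate 2 the members took 0.466% of reads, below RBPJ WT replicates 1 and 2 at 0.481 and 0.477%. Leaving out 1 library without a term for the pair of replicates makes the pairs unequal between the groups, and the direction then depended on the library. It gave -0.175 to 0.048 for WT against empty vector, above 0 without RBPJ WT replicate 1 or 2 or empty vector replicate 3 or 4. It gave -0.08 to 0.179 for the mutant against empty vector, below 0 without empty vector replicate 1 or 2 or mutant replicate 3 or 4. It gave -0.019 to 0.249 for the mutant against WT, below 0 without RBPJ WT replicate 2 or mutant replicate 3. Counting the near-identical libraries once, which also makes the pairs unequal, gave -0.063, -0.171 and -0.109, and -0.063, 0.027 and 0.091 with a term for the pair of replicates.

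The members together took 0.466 to 0.715% of a library's reads, and the replicate pairs of the rescue differed more in this share than the groups did. In the knockdown it was 0.521, 0.535 and 0.571% in the scramble and 0.521, 0.525 and 0.517% in the shRNA libraries. In the rescue it was 0.487, 0.503, 0.671 and 0.697% with the empty vector, 0.481, 0.477, 0.646 and 0.664% with RBPJ WT, and 0.527, 0.466, 0.715 and 0.693% with RBPJ F261A/A284V. The lowest, mutant replicate 2, has an exact binomial 95% interval of 0.4611 to 0.4705%, and the highest, mutant replicate 3, of 0.7062 to 0.7237%; these cover counting error only. Replicates 3 and 4 were the highest of their group in each case, and the 3 groups overlapped.

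The library with most reads, mutant replicate 2, had the lowest share of all 18, and the library with fewest reads, mutant replicate 3, the highest. Scramble replicate 3, the shallowest of the knockdown, and mutant replicate 1, the shallowest of rescue replicates 1 and 2, had the highest share of their sets. Mutant replicate 1 lay above the other 5 libraries of replicates 1 and 2 in 73 of 90 members, beside 35.7% of all genes. The mean share of replicates 3 and 4 over that of replicates 1 and 2 was 1.38 with the empty vector, 1.37 with RBPJ WT and 1.42 with the mutant, while total reads differed by 1.99, 1.89 and 1.91 times in the other direction. The assembly factors' share did not follow: their ratios were 0.959, 0.949 and 0.993, and their share lay between 0.0372 and 0.0449% in all 18 libraries. Depth and the split between replicate pairs cannot be told apart, and in bulk RNA fewer cells of a type and less RNA per cell cannot be either.

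**Figure D4:**
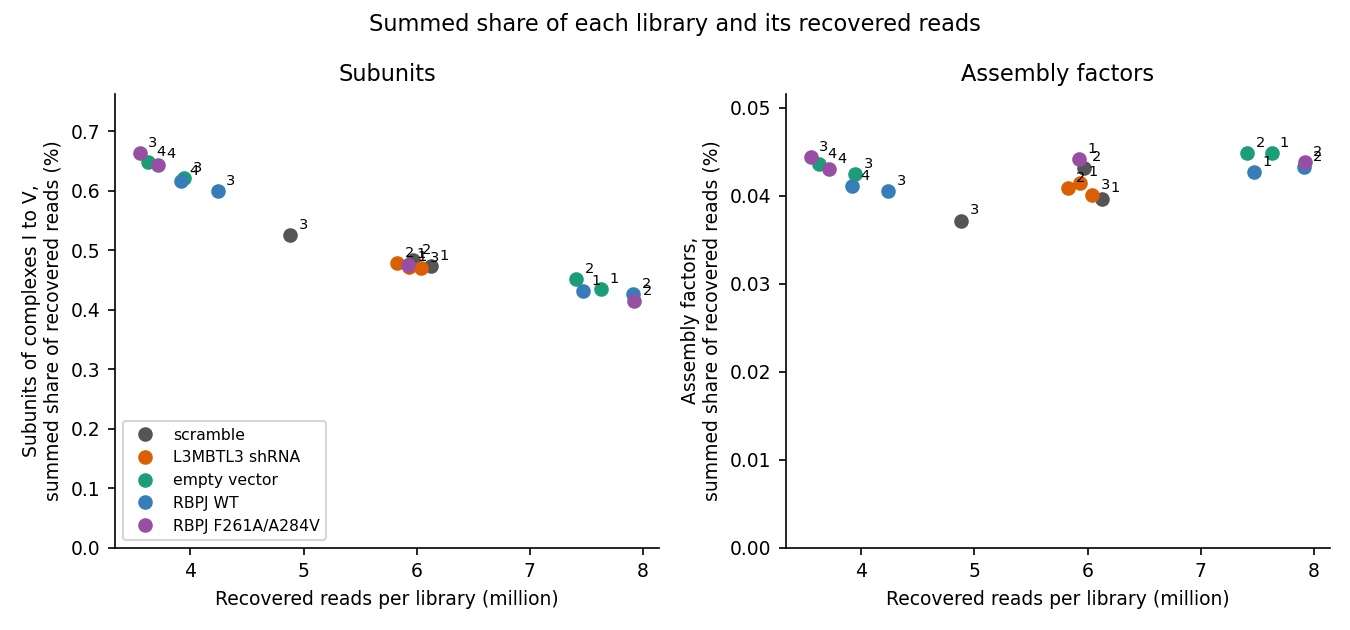
Share of a library's reads in subunit genes and in assembly factors against recovered reads, 1 point per library, coloured by group and numbered by replicate. Subunits take between 0.415 and 0.664% and are highest in the shallow rescue replicates 3 and 4, while assembly factors stay between 0.0372 and 0.0449%.

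Each respiratory complex had this split. From rescue replicates 1 and 2 to replicates 3 and 4, complex I went from 0.176 to 0.197% of reads to 0.244 to 0.271%, and complex II from 0.0418 to 0.0469% to 0.0559 to 0.059%. Complex III went from 0.0479 to 0.0549% to 0.0683 to 0.0751%, complex IV from 0.0503 to 0.0596% to 0.0789 to 0.0879%, and complex V from 0.0996 to 0.118% to 0.151 to 0.172%. No complex overlapped between the replicate pairs. The share of reads on Rn45s, the ribosomal RNA precursor that the depletion step should remove, moved the same way, from 0.0728 to 0.109% to 0.127 to 0.153%, with mutant replicate 1 the highest of replicates 1 and 2; its part in the split was not tested. On normalised values, all 6 libraries of replicates 3 and 4 lay above all 6 of replicates 1 and 2 in 76 of 90 members, beside 26.2% of all tested genes, and all below in 0, beside 21.3%. Since the labels name no batch, this is described without a test.

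The 76 members were 75 of the 77 tested subunits and 1 of the 11 assembly factors. The median log2 difference of the subunits was 0.608 (1.52-fold), against -0.041 for assembly factors and -0.023 for all genes. By complex the medians were 0.577 for I (35 of 36 members without overlap), 0.514 for II (4 of 4), 0.661 for III (8 of 8), 0.735 for IV (13 of 14) and 0.7 for V (15 of 15). The number without overlap was 75 to 78 on other scalings, with near-identical libraries counted once and without mutant replicate 1. On the total-read scale the median of all genes shifted to -0.128 and that of the members to 0.487. The median of the assembly factors also depended on the scaling. It was 0.202 on the quantile scale and -0.147 on the total-read scale, where subunits stood at 0.704 and 0.503. Within single groups, 78, 80 and 82 members had replicates 3 and 4 both above replicates 1 and 2, beside 39.9, 39.0 and 38.3% of genes.

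Cox4i1 had the largest difference, 0.85 (1.8-fold). It read 319, 340, 557 and 614 with the empty vector, 317, 308, 536 and 582 with RBPJ WT, and 381, 301, 644 and 601 with the mutant. Atp5b was similar at 0.83, with 1005, 1069, 1802 and 1956, then 1035, 989, 1690 and 1855, then 1257, 966, 2005 and 1914. In both genes replicates 3 and 4 stood above replicates 1 and 2 in every group. Within replicates 3 and 4, both genes were higher in the mutant than in the RBPJ WT libraries, and the empty vector overlapped the mutant. Atp5e, the epsilon subunit of the F1 part, differed by 0.84, from 152 to 174 in replicates 1 and 2 to 262 to 317 in replicates 3 and 4. The core subunits of complexes I and II differed less evenly: Ndufs1 by 0.36, Ndufs8 by 0.36, Sdha by 0.42, Ndufs7 by 0.64 and Sdhb, the iron-sulfur subunit of complex II, by 0.70. The core of complex III, Uqcrc1, Uqcrc2 and the Rieske protein Uqcrfs1, differed by 0.55, 0.62 and 0.58. Ndufa5 followed as well, reading 107, 109, 155 and 174 with the empty vector, 107, 97.6, 144 and 153 with RBPJ WT, and 119, 99.6, 154 and 157 with the mutant.

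Few members stood outside the split. The 2 subunits whose replicate pairs overlapped were Ndufab1, with a difference of 0.02, and Cox7a1, with 0.19. Ndufaf3, with a difference of 0.45, was the assembly factor whose replicate pairs did not overlap over the 12 libraries, and Sdhaf1, which differed by 0.37, was higher in replicates 3 and 4 within each group. The lowest differences were those of Atp5s at -0.21, Ndufaf4 at -0.15 and Ndufaf2 at -0.13. In each of these 3 the replicate pairs overlapped. Ndufaf4 read 243 to 306 over the 12 libraries except for 213 in RBPJ WT replicate 3.

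**Figure D5:**
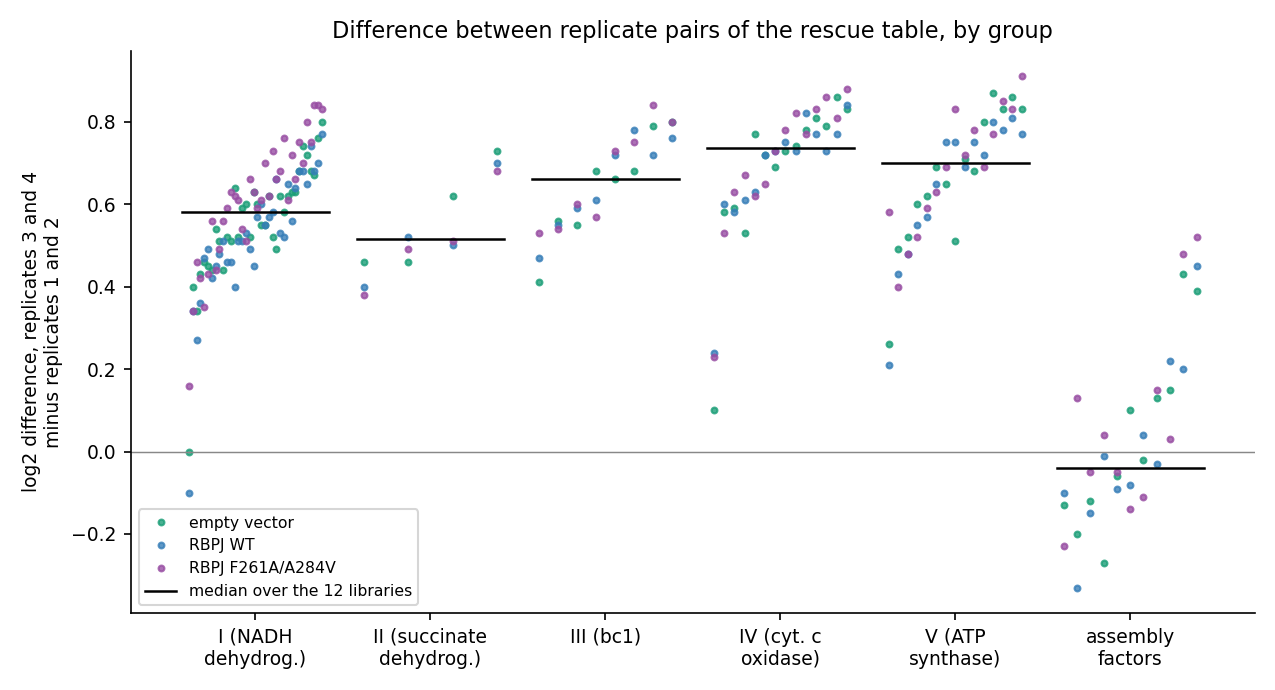
Log2 difference between rescue replicates 3 and 4 and replicates 1 and 2 for each member, by complex and by group, with black bars for the median over the 12 libraries. Subunits of all 5 complexes have medians between 0.514 and 0.735 over the 12 libraries, and the assembly factors centre near 0.

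The size of the difference also went with the level of a gene. Across 11593 tested genes, which share these libraries and are not independent, it correlated with the per-kilobase level in the separate knockdown table at a Spearman rho of 0.701 and with transcript length at -0.305; across the 90 members the values were 0.667 and -0.365. In 5 equal bins of that level, the median difference of all genes was -0.476, -0.26, -0.0801, 0.108 and 0.393 from the lowest to the highest. In the highest bin stood 53 of the 77 subunits, with a median of 0.644, and in the next lower bin 14, with 0.618. The 5 assembly factors of the middle bin had a median of 0.0832, beside 0.536 for the 7 subunits there and -0.0801 for all genes. Members with a larger difference between replicate pairs were also more raised in scramble replicate 3 over scramble replicates 1 and 2 (Spearman rho 0.735 over 90 members, 0.505 over 11257 genes). What sets the level relation was not tested.

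Other genes of the pathway were taken from lists by function, and 0 of them were called in the knockdown by limma, edgeR or DESeq2. Over all genes, 25.5% had an unadjusted p under 0.05 there, and 26.2% had rescue replicates 3 and 4 all higher and 21.3% all lower. Of 5 respiratory genes with other symbols, among them cytochrome c1 (Cyc1) and cytochrome c (Cycs), 2 had an unadjusted p under 0.05 in the knockdown, and 4 had rescue replicates 3 and 4 all higher, with a median difference of 0.485 for the list. Of 17 genes of the citric acid cycle and pyruvate dehydrogenase, which feed the chain, 1 had an unadjusted p under 0.05 and 15 had replicates 3 and 4 all higher (median 0.413). Of 37 assembly factors outside the symbol rule, 4 had an unadjusted p under 0.05, and 11 had replicates 3 and 4 all higher and 5 all lower (median 0). Of 16 tested regulators of mitochondrial biogenesis, 4 had an unadjusted p under 0.05, and 2 were all higher and 4 all lower (median -0.028). In the rescue comparisons 0 genes of these lists were called by limma, edgeR or DESeq2, with 0 to 2 genes of a list at an unadjusted p under 0.05.

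Some of these genes were called in the knockdown with the replicate block, where 13.5% of all genes rose and 8.71% fell. Cycs, which carries electrons from complex III to IV, was at 305 ± 12.7 in the scramble and 257 ± 5.32 in the shRNA libraries (log2 fold change -0.25, adjusted p = 0.0885, and 0.0479 with the block), and its difference between the replicate pairs of the rescue was -0.08. Bcs1l, which inserts the Rieske protein into complex III, was at 201 ± 35.3 and 265 ± 13.9 (adjusted p = 0.107, and 0.0185 with the block), and Taco1, a translational activator of a mitochondrially encoded subunit of complex IV, at 72.9 ± 21 and 104 ± 7.46 (0.173 and 0.034). The mitochondrial DNA polymerase Polg was at 947 ± 85.2 and 1087 ± 33.7 (0.132 and 0.0214), and the helicase Peo1 at 274 ± 55.6 and 338 ± 22 (0.207 and 0.028). The transcription factor Gabpa was at 1260 ± 94.2 and 1101 ± 34.2 (0.118 and 0.0216), and Yy1 at 939 ± 157 and 824 ± 62.9 (0.348 and 0.0496). All SDs are over 3 libraries.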

How the data were processed

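RNA of 18 libraries of E2-10HA cells was analysed. The authors deposited 1 table per experiment, holding a signal per gene: gene counts divided by 1 size factor per library. The submitters' processing notes name the build mm9, the aligner TopHat2 2.1.1 and DESeq2 1.24.0. The read counter, its annotation and its treatment of strand were not given in the sources used here. Within every library 100% of values came out as whole reads within a tolerance of 0.1 read, and these recovered reads gave depths, shares, and the edgeR and DESeq2 alternatives. Intervals of shares are exact binomial and cover counting error only.

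Genes with a normalised value of at least 10 in at least 3 (knockdown) or 4 (rescue) libraries were tested. Log2(value + 1) was compared with limma 3.58.1 (trend, 2-sided, in R 4.3.3), with no term other than group, the 12 rescue libraries in 1 fit, and p-values were Benjamini-Hochberg adjusted over all genes tested and called at 0.05. Fold changes on this scale understate changes of low genes. Alternatives used edgeR 4.0.16, DESeq2 1.42.0, a pseudocount of 0.5 or 5, no filter, quantile, total-read and TMM scaling, a replicate block, a term for the pair of replicates, either pair alone, near-identical libraries merged, and each library left out. Scripts were tested on simulated data. Replicate numbers were taken as pairs because same-numbered libraries deviated together (correlations of 0.24 to 0.539 in the knockdown and 0.55 to 0.815 in the rescue). The pairing is not clear-cut, since libraries of different number reached 0.332 in the knockdown and 0.832 in the rescue.

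Lengths and overlaps came from GENCODE for GRCm38, not the authors' build: 28 of 96 members overlap an exon of another gene, so some reads are uncertain. Named are members called or of lowest p in each direction, core subunits, paralog sets, the highest and lowest of each complex, and the largest differences between replicate pairs; Atp5j, Ndufaf3 and Ndufa5 in the rescue were named after their values were seen. The members and lists were chosen with earlier results of these data known. Of 13 mitochondrially encoded subunits looked up by symbol, 0 were found in the deposited data, so they were not analysed here.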

Additional observations from a re-analysis of the deposited data

Results flagged for a closer look

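Dixon's test was run on 147 groups of 4 libraries for the named genes, and chance marks about 1 group in 20. The test marked 2 groups, both in RBPJ WT replicate 3. Ndufaf1, a complex I assembly factor, read 211 there, while the other 3 libraries of the group lay between 233 and 238. Ndufaf6, another complex I assembly factor, read 153 there, while the other 3 were at 155.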

How the results depend on the processing

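Members called in the knockdown numbered 1 of 90, 3 with the replicate block, 2 with quantile scaling, 2 with DESeq2, and 0 to 1 when 1 library was left out. All genes called higher and lower numbered 256 and 129, but 1566 and 1009 with the block, 533 and 376 with quantile scaling, 456 and 199 with DESeq2, and 320 and 152 with edgeR. For the mutant against RBPJ WT, members called numbered 0, 1 with the replicate block or with a term for the pair of replicates, and 2 within replicates 3 and 4. The pairing changed no call of a member other than Cox6a2, Ndufaf7 and Sdhaf1. Direction changed for Ndufaf2 in the knockdown (0.22, and -0.002 with quantile scaling), Cox6a2 in RBPJ WT against empty vector (0.11, with a leave-one-out range of -0.013 to 0.228, and -0.013 and -0.004 without empty vector replicate 1 and RBPJ WT replicate 3), and, in the mutant against empty vector, Atp5sl (0.09, and -0.023 in replicates 1 and 2) and Ndufaf6 (-0.08, and 0.069 in replicates 3 and 4). The cause was not tested. Depth limits low members: Cox8b, Cox6b2 and Cox4i2 have too few reads for any comparison.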
